A study of Mus musculus with 8 samples.

Results

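The regions described here are the ATAC-seq peaks that lie at the ends of mouse Zfp genes, the genes named as zinc finger protein plus a number. A peak was taken when its centre lay within 2 kb of either end of a protein-coding gene of that name on chromosomes 1 to 19 of GRCm38, with Zfp42, Zfp57 and Zfp281 left out. This gave 491 of the 134407 peaks in the table, at 314 of the 357 Zfp genes. A gene was called clustered when it lay with at least 2 other Zfp genes inside some window of 500 kb, and single otherwise. A single gene can thus still lie close to another Zfp gene, as Zfp960 lies close to Zfp97. By that split 281 peaks belonged to clustered genes and 210 to single genes, and the 213 clustered genes formed 34 clusters. The rule uses positions and names only and no measured value, although the group was picked with earlier results of these data known.

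ATAC-seq measures how readily the Tn5 transposase inserts sequencing adapters into chromatin, so a high value marks accessible DNA. The study used E14, a wild-type line of mouse embryonic stem cells, grown on gelatin in medium with serum and LIF. The control group held 4 libraries of untreated cells, and the paused group held 4 libraries of cells that had received INK128 at 200 nM for 24 h. INK128 blocks the growth kinase mTOR and puts these cells into a dormant state resembling diapause. Each library was made from 50000 live cells, all of 1 line, and the labels do not say whether the replicates were separate cultures, so the p-values measure the spread between these libraries only.

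Most Zfp genes of the mouse encode proteins with an array of C2H2 zinc fingers that read DNA, and many of these carry a KRAB domain. The KRAB domain recruits the co-repressor TRIM28, which brings in the histone methyltransferase SETDB1, and the complex silences transposable elements, above all endogenous retroviruses, in embryonic stem cells. The genes have multiplied by local duplication, so that many stand in tandem clusters whose members resemble each other, while a few Zfp names belong to proteins of another kind, such as the mRNA decay factor encoded by Zfp36.

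The promoters of 5 Zfp genes with results given further down are shown first, to let the letters be read beside the values. Each is the 250 bases before the start listed nearest to the gene's peak in RefSeq on GRCm38.p6, written 5′ to 3′ on the gene's own strand. At Zfp719, Zfp488 and Zfp809 that listed start lies inside the gene span. The window of Zfp488 lies wholly within its gene, and those of Zfp719 and Zfp809 in part. Capitals mark the matches to 8 motifs searched on both strands. These are CCAAT (the NF-Y box), CCGGAAG (an ETS site), GGGCGG (the GC box) and ATGGCG (part of the YY1 site). The others are TATAAA (the TATA box), TGACGTCA (the CRE), the NRF1 motif and the long palindromic CGCG motif. Zfp640 lies at chr13:66680804-66681053 on the minus strand, Zfp719 at chr7:43579336-43579585 on the plus strand, and Zfp36 at chr7:28379229-28379478 on the minus strand. Zfp488 lies at chr14:33978765-33979014 on the minus strand and Zfp809 at chr9:22225462-22225711 on the plus strand.
Zfp640: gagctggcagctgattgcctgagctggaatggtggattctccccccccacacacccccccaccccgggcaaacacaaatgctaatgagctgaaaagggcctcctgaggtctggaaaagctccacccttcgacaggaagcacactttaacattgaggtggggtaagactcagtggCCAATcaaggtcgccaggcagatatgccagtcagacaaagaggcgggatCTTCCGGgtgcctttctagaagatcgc
Zfp719: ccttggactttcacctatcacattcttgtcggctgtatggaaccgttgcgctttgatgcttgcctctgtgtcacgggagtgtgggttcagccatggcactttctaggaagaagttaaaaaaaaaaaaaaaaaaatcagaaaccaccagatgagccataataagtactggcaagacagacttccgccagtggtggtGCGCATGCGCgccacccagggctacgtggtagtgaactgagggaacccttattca
Zfp36: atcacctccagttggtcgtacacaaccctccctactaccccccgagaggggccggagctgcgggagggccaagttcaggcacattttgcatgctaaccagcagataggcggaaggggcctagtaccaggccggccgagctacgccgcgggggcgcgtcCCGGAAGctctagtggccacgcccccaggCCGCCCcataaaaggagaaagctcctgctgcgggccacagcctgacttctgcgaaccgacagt
Zfp488: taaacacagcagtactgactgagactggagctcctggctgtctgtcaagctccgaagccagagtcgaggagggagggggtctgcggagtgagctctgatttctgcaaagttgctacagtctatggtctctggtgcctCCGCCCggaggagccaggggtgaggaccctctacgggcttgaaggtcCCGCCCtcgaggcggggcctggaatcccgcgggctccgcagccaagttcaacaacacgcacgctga
Zfp809: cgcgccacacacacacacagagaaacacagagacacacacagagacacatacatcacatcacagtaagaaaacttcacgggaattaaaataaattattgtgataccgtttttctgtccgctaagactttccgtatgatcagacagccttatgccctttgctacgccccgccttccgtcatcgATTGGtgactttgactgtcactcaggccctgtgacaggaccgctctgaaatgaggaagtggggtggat

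The promoter table held 358 windows of 300 bases (250 before the start and 50 after) for 298 of the 357 Zfp genes. Among these windows, 22.6% held CCGGAAG, against 8.86% of all 32851 promoters in the table and 11.6% of the 21262 promoters of protein-coding genes. CCAAT was held by 47.8% of the Zfp windows, 37.4% of all windows and 38.2% of coding windows, and ATGGCG by 15.9%, 8.93% and 10.9%. GGGCGG stood in 44.1% of Zfp windows, between the 35.7% of all and the 46.2% of coding windows. TATAAA stood in 6.70%, 13.6% and 12.6% of the same 3 sets, and TGACGTCA in 3.63%, 1.79% and 2.23%. The NRF1 motif was held by 9.22%, 6.23% and 8.57%, and the CGCG motif by 0.279%, 0.466% and 0.673%. Clustered and single Zfp windows held CCGGAAG at 22.2% and 23.2%, and their median GC content was 53.3% and 58.7%. These shares are letter matches in the reference sequence and say nothing of whether a factor was bound.

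The reads in peaks ranged from 4434037 in control 3 to 21161767 in control 1, so that control 1 was by far the deepest library, with a median of 91 reads per peak against 18 to 29 in the other libraries. Zfp gene-end peaks were well covered, with a median of 68 to 345 reads per peak per library. They took 0.903% ± 0.0262 (SD, n = 4) of the reads in peaks in control and 0.940% ± 0.0260 (SD, n = 4) in paused libraries, with ranges of 0.868% to 0.931% and 0.913% to 0.972% that overlapped. As a check of the labelled cell type, 7 of 8 embryonic stem cell marker genes had gene-end peaks. Of these 18 peaks, 3 were higher in paused cells (16.7%, against 11.0% of all peaks tested), at Zfp42 and Esrrb. Of the markers of other cells, 4 of 5 fibroblast genes (7 peaks) and 3 of 4 primitive endoderm genes (3 peaks) also had one. None of these 10 peaks passed the test. An accessible promoter does not show that a gene is transcribed, and the presence of peaks did not set these cell types apart.

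Peaks at Zfp gene ends were more accessible in paused than in control cells, by a small amount at most of them. Of the 474 peaks that entered the test (mean value of at least 10), 72 were called higher and 6 lower, at an adjusted p under 0.05 from limma-trend on log2(value + 1), adjusted over all 127402 peaks tested. The shares were 15.2% higher and 1.27% lower, against 11.0% and 2.91% of all peaks tested and 9.69% and 1.87% of the 21752 tested peaks at the ends of other protein-coding genes. The median log2 change was 0.20 at Zfp gene ends, 0.10 over all peaks and 0.15 at other gene ends. A positive change was seen at 386 of the 474 peaks (81.4%), compared with 61.3% of all peaks and 72.3% of other gene-end peaks. The authors' deposited table called 78 of the 491 peaks higher and 4 lower at an FDR under 0.05, or 15.9% and 0.815%, against 9.19% and 1.80% of all its peaks. Leaving out 1 library at a time gave 34 to 74 higher peaks, and the count fell by more than 1.5 times without paused 4 (34), control 1 (36), paused 3 (39) or paused 2 (47). The share called higher then lay below that of all peaks without control 1 (7.59% against 8.34%) and without paused 3 (8.23% against 9.30%), and close to it without paused 4 (7.17% against 7.05%). It lay above that of other gene-end peaks under all 16 alternative settings, and above that of all peaks under 10 of the 16.

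The rise depended on the scaling of the libraries. With TMM scaling and edgeR's quasi-likelihood test on the recovered reads, 33 Zfp peaks were higher and 13 lower (6.96% higher; background 7.13% and 5.54% of all peaks, 4.00% and 3.76% of other gene-end peaks), the median change was 0.09 and the median of all peaks moved from 0.10 to -0.01. Relative to the median of all peaks, the Zfp median stood 0.09 higher under the deposited scaling, 0.10 higher under TMM and 0.02 higher after the loess correction described next. After a loess correction, which removes from each library any smooth trend of the value with mean peak strength, 11 were higher and 7 lower (2.32% and 1.48%, background 5.10% and 3.50% of all peaks, 2.09% and 2.53% of other gene-end peaks), and the median was 0.01. All 11 had also been called higher without the correction, and they were peaks of Zfp2, Zfp640, Zfp677, Zfp995, Zfp763, Zfp37, Zfp316, Zfp541, Zfp111, Zfp420 and Zfp961.

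The strength of the peaks moved with the result. Over all peaks the change grew with mean value, from a median of -0.20 in the weakest 10% of tested peaks to 0.20 in the strongest 10%, and 229 of the 474 Zfp peaks (48.3%) were among the strongest 10% of all peaks. Within that strongest 10%, 43 of the 229 Zfp peaks (18.8%) were called higher, with a median change of 0.22. That share was close to the 18.0% of all peaks of that strength and above the 12.7% of other gene-end peaks (1006 of 7894, median 0.20). The part of depth and peak strength in the rise was not tested further.

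Clustered genes carried most of the called rises. Of their 266 tested peaks, 55 were higher and 3 lower, with a median change of 0.21. Of the 208 tested peaks of single genes, 17 were higher and 3 lower, with a median of 0.17. The share called higher was thus 20.7% for clustered and 8.17% for single genes, and the latter lay below the 9.69% of other gene ends. The class shares under the 16 settings kept clustered genes above single genes, whereas single genes lay below other gene ends in 13 of 16 and above them without control 3 (8.17% against 6.96%), with edgeR and the deposited factors (13.0% against 12.2%) and with a replicate block (17.3% against 15.3%). In the strongest 10% of peaks, 34 of 138 clustered peaks (24.6%) and 9 of 91 single peaks (9.89%) were higher, with medians of 0.23 and 0.22 and median standard errors of 0.112 and 0.113. In the seventh of 10 equal bands of strength, counted from the weakest, the order was the opposite, with 2 of 11 clustered and 3 of 9 single peaks higher. Peaks of 1 cluster share their neighbourhood and are not independent, and the difference between the classes was not tested. The clustered count was 30 without control 1, 35 without paused 2, 28 without paused 3 and 27 without paused 4, and the single count was 6 without control 1, 11 without paused 3 and 7 without paused 4.

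The mean log2(value + 1) over the clustered peaks was 6.62, 6.64, 6.65 and 6.67 in control 1 to 4 and 6.77, 6.80, 6.88 and 6.85 in paused 1 to 4. Over the single peaks it was 6.44, 6.50, 6.48 and 6.47 in control and 6.54, 6.56, 6.65 and 6.63 in paused libraries. In both classes every paused library lay above every control library, by 0.18 and 0.12 between the group means. The groups were also separate over other gene-end peaks, which differed by 0.09, and over all peaks, which differed by 0.07. Under TMM scaling the clustered groups stayed separate. The single groups then overlapped, at 6.47 to 6.55 in control and 6.50 to 6.56 in paused libraries. After the loess correction the clustered means still did not overlap, at 6.70 to 6.72 in control and 6.74 to 6.75 in paused libraries, a difference of 0.03. The corrected difference of the single peaks was -0.02, with overlapping groups.

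**Figure D1:**
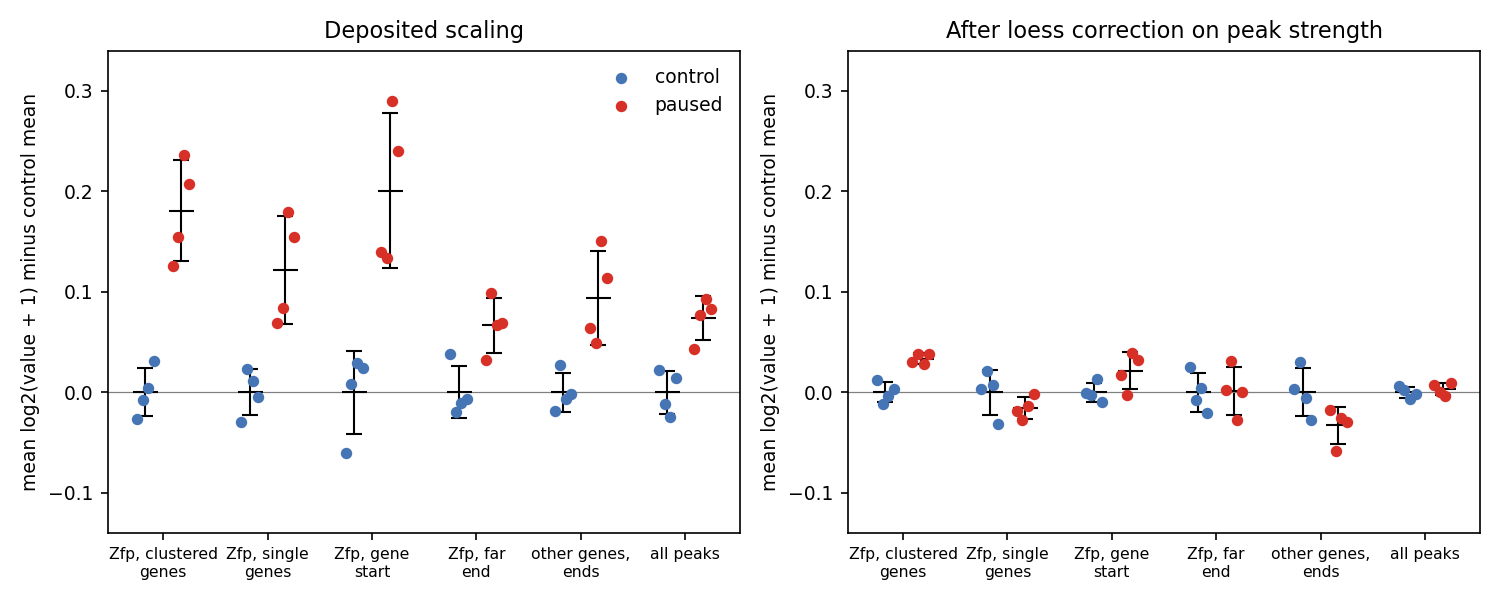
Mean log2(value + 1) of each library over 6 peak sets, given as the difference from the control mean of that set, with the deposited scaling (left) and after the loess correction (right). Points are libraries, and bars are the mean and SD of 4 libraries. On the left the paused libraries lie above the controls by 0.18 for clustered and 0.12 for single Zfp genes. On the right the differences shrink to 0.03 and -0.02.

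Starts and far ends of the genes differed in strength and in change. The strand was known for 298 genes, which allowed 275 tested peaks to be placed at a start and 110 at the far end, with 89 unplaced. Start peaks were strong (median of the mean value 200.6) and 52 of them were higher (18.9%) and 2 lower, with a median change of 0.21. That share is close to the 18.0% of all peaks in the strongest 10%. Far-end peaks were weaker (median 33.4), with 14 higher (12.7%, against 11.0% of all peaks), 3 lower and a median of 0.11. The starts of clustered genes held the highest share of calls, 43 of 167 peaks (25.7%), with a median change of 0.24, against 9 of 108 (8.33%) and 0.18 at the starts of single genes. Without control 1, paused 2, paused 3 or paused 4 the start count was 23, 33, 25 or 23, and the far-end count was 9 without paused 3 and 9 without paused 4. The far-end median was 0.16 without paused 1. It changed sign under 3 settings, which were TMM with edgeR (-0.02), DESeq2 and the loess correction (-0.01).

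**Figure D2:**
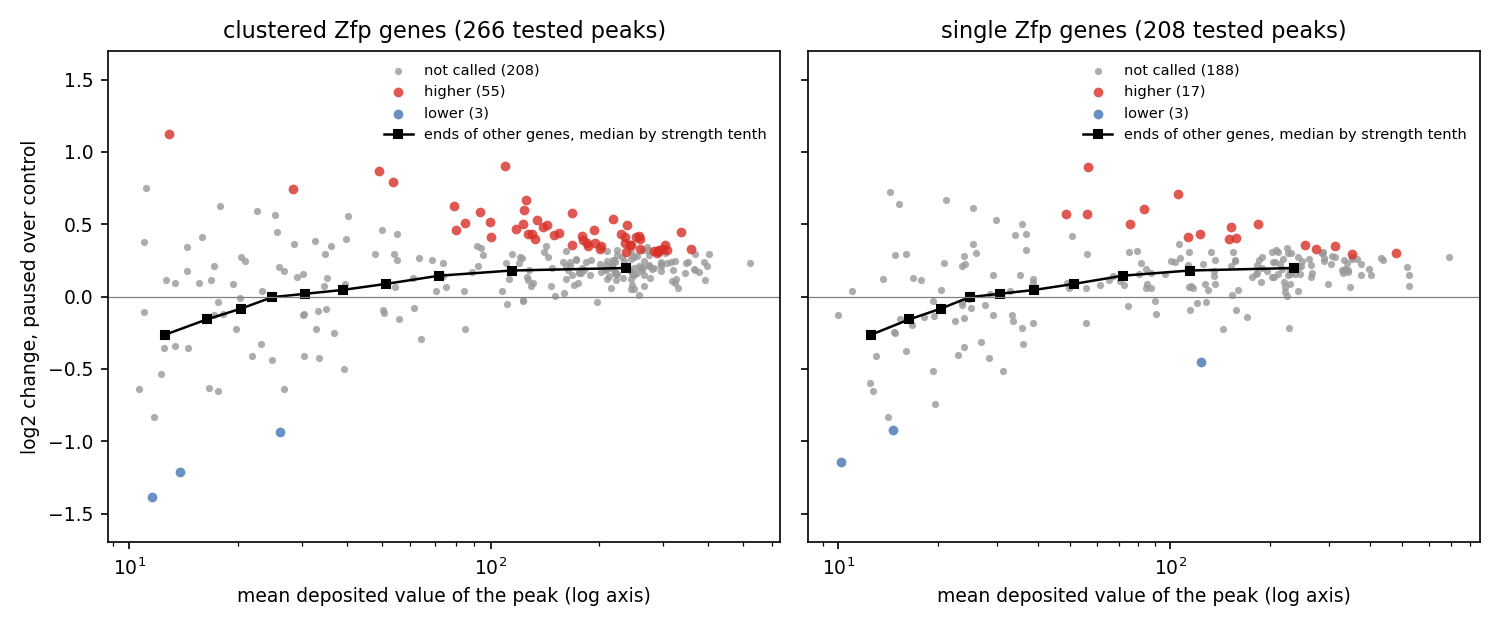
Log2 change (paused over control) of each tested Zfp gene-end peak against its mean deposited value on a log axis, for clustered (left) and single genes (right). Red and blue points passed the test as higher and lower, and the black line gives the median change of peaks at the ends of other genes by strength. Most red points lie at high values. The left panel holds 55 of them among 266 peaks, and the right panel 17 among 208.

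Groups that do not overlap give a count free of the test, but it was made on the deposited values and so carries the same scaling of the libraries. All 4 paused values lay above all 4 control values at 91 Zfp peaks and below them at 10, or 19.2% and 2.11%, where 13.0% and 4.36% of all peaks and 13.4% and 3.03% of other gene-end peaks did so. Of the 72 peaks called higher, 57 had groups that did not overlap. The called rises were modest, from 0.30 to 1.13 with a median of 0.43 on the log2 scale. Only 4 called Zfp peaks changed at least 2-fold, the rise at Zfp961 and the falls at Zfp647, Zfp850 and Zfp46. All 4 were among the weakest 10% of tested peaks. The 72 peaks belonged to 67 genes, and Zfp111, Zfp2, Zfp61, Zfp775 and Zfp825 each had 2 of them.

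Rises were spread over the clusters rather than held by 1 of them. At least 1 peak was higher in 23 of the 34 clusters and lower in 3. All 23 clusters with 5 or more tested peaks had a median change above 0, and 22 of them had a median above that of all peaks; after the loess correction 14 of the 23 medians were above 0. The highest median was that of the cluster from Zfp709 to Zfp961 on chromosome 8 (71882068 to 71970333), where all 6 tested peaks had a positive change, 3 were called and the median was 0.47. In the cluster from Zfp936 to Zfp819 on chromosome 7, 4 of 7 peaks were higher, with a median of 0.36. Only those 4 had a positive change, and the lowest change in that cluster was -0.41.

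The 2 clusters with the most genes had lower medians than these. The cluster from Zfp160 to Zfp945 on chromosome 17 (21008941 to 22867309) has 20 Zfp genes, all with a peak, and 7 of its 24 tested peaks were higher, with a median of 0.27. The cluster from Zfp640 to Zfp273 on chromosome 13 (66670274 to 67827000) also has 20 genes, and 3 of its 21 tested peaks were higher, with a median of 0.24. At the other end of the order, the cluster from Zfp40 to Zfp13 on chromosome 17 had a median of 0.02, with 0 of 6 peaks higher and 1 lower. The cluster from Zfp397 to Zfp24 on chromosome 18 had 4 tested peaks, a median of -0.09 and no call.

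**Figure D3:**
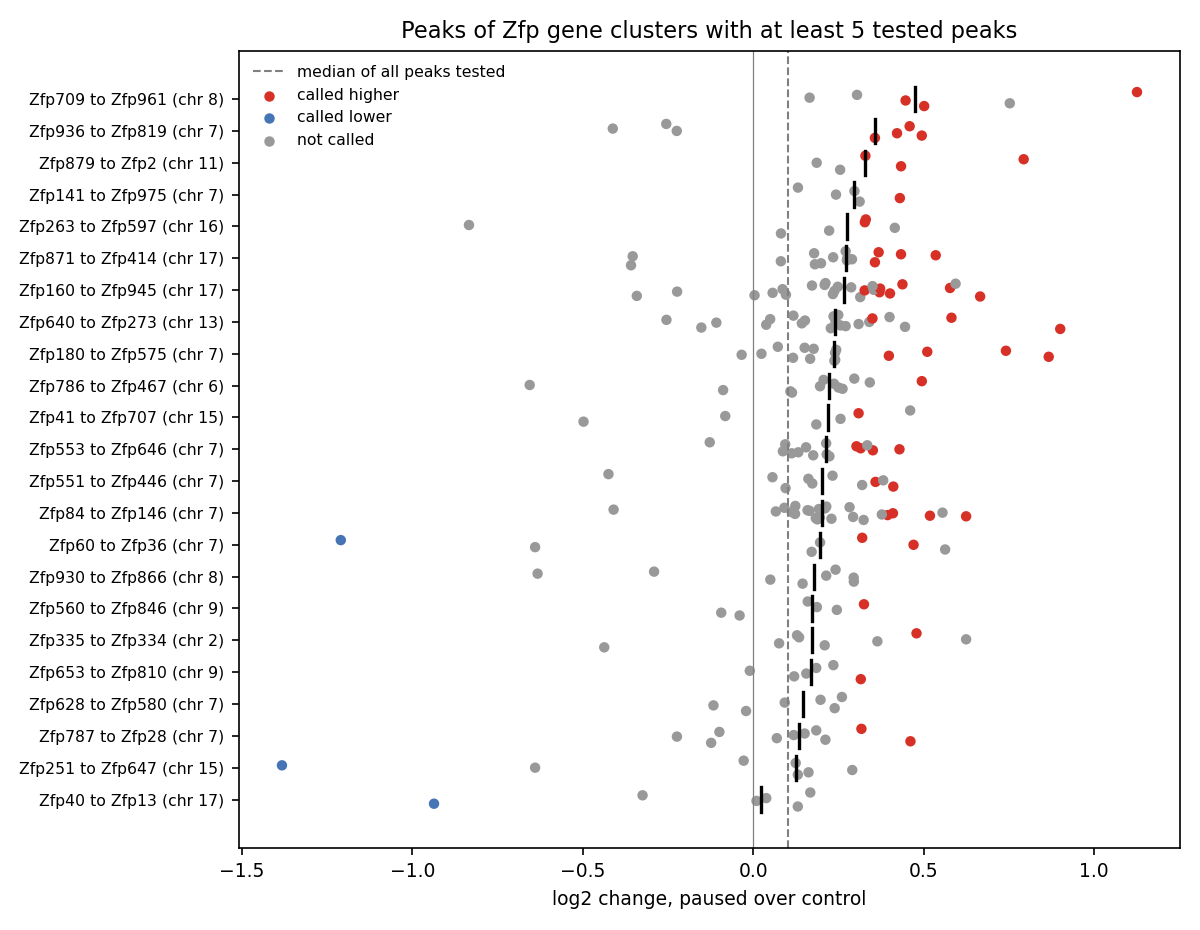
Log2 change (paused over control) of every tested peak in the 23 Zfp gene clusters with at least 5 tested peaks, ordered by median. Points are peaks, coloured by call, black bars are medians, and the dashed line is the median of all peaks tested (0.10). Medians run from 0.02 for Zfp40 to Zfp13 up to 0.47 for Zfp709 to Zfp961, and red points appear in most clusters.

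Among clustered genes, the promoter peak of Zfp640 rose clearly. The peak at chromosome 13, 66680862 to 66681062, centred 159 bp outside the gene's start, had values of 83.3, 92.0, 54.2 and 77.9 in control 1 to 4 and of 143, 166, 124 and 137 in paused 1 to 4. Every paused value lay above every control value, and the log2 change was 0.90 (SE 0.14, adjusted p = 4.6e-05). The Zfp640 promoter printed above overlaps this peak by 192 bp. It holds CCAAT, which lies inside the peak, and CCGGAAG, which lies outside it, nearer the start of the gene.

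The far-end peak of Zfp111 (chromosome 7, 24191440 to 24191640) had values of 33.5, 33.4, 33.9 and 36.7 in control and 54.2, 64.7, 68.3 and 68.0 in paused libraries. The controls were tightly grouped and the log2 change was 0.87 (SE 0.17, adjusted p = 0.000483). The far-end peak of Zfp2 (chromosome 11, 50897459 to 50897659) went from 33.2, 53.8, 32.2 and 38.2 to 62.3, 75.7, 54.3 and 80.8, a change of 0.79 (SE 0.18, adjusted p = 0.00231). The calls at Zfp640, Zfp111 and Zfp2 held under all 16 alternative settings run. The largest fitted rise, 1.13 at Zfp961, came from a weak peak with 3 to 35 reads per library, and its call was lost under 9 settings, among them edgeR (adjusted p = 0.12 with TMM) and leaving out control 3, control 4, paused 1, paused 2 or paused 3 (adjusted p from 0.0574 to 0.0881).

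Among single genes, the far-end peak of Zfp37 (chromosome 4, 62188740 to 62188940) rose most. Its values were 38.7, 40.6, 45.7 and 32.3 in control and 83.1, 72.6, 60.5 and 79.7 in paused libraries, without overlap, and the log2 change was 0.89 (SE 0.17, adjusted p = 0.000288). That call held under all 16 settings. The start peak of Zfp488, which encodes a regulator of oligodendrocytes, went from 70.9, 59.7, 66.0 and 64.7 to 80.8, 96.2, 127 and 101, a change of 0.61 (SE 0.15, adjusted p = 0.00416), and lost its call under DESeq2 and the loess correction.

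The peaks of Zfp740 (0.57) and Zfp286 (0.50) were the other single-gene rises of that list, at adjusted p = 0.0166 and 0.00256. The Zfp740 peak also lies 933 bp from an end of Itgb7, an integrin gene, and its call was lost without control 2 (adjusted p = 0.0655) or without paused 2 (adjusted p = 0.0742), and under limma-trend after TMM rescaling. Both calls were lost under DESeq2 and the loess correction.

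The 6 lower peaks were mostly weak ones, 5 of them with a mean value under 30. The peak outside the far end of Zfp213 (chromosome 17, 23555579 to 23555779) fell from 39.8, 26.3, 33.9 and 38.2 to 16.2, 15.8, 23.3 and 15.2, a change of -0.94 (SE 0.23, adjusted p = 0.00581). The peak near Zfp647 (chromosome 15, 76909400 to 76909600) fell from 16.9, 17.9, 18.6 and 14.7 to 4.61, 4.73, 7.76 and 7.03, or by 1.38 on the log2 scale (SE 0.36, adjusted p = 0.00718). In neither did the groups overlap, and both calls held under all 16 settings, although the paused values of Zfp647 rest on 3 to 6 reads each.

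The remaining falls were less firm. Zfp850 (-1.21), Zfp46 (-1.14) and Zfp384 (-0.93) had adjusted p of 0.0174, 0.0421 and 0.0402, and all 3 calls were lost under DESeq2 and the loess correction. The Zfp850 call was lost without control 3, control 4 or paused 4 (adjusted p from 0.0579 to 0.084). The Zfp46 call was lost without any single library other than paused 2, and the Zfp384 call without any other than control 4 or paused 1 (adjusted p up to 0.13 and 0.137). Zfp219, the only stronger peak among the 6, had values of 130, 133, 149 and 156 in control and 132, 80.4, 119 and 89.0 in paused libraries, which overlapped, with a change of -0.45 (adjusted p = 0.0243). That peak also lies 1808 bp from an end of Arhgef40.

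**Figure D4:**
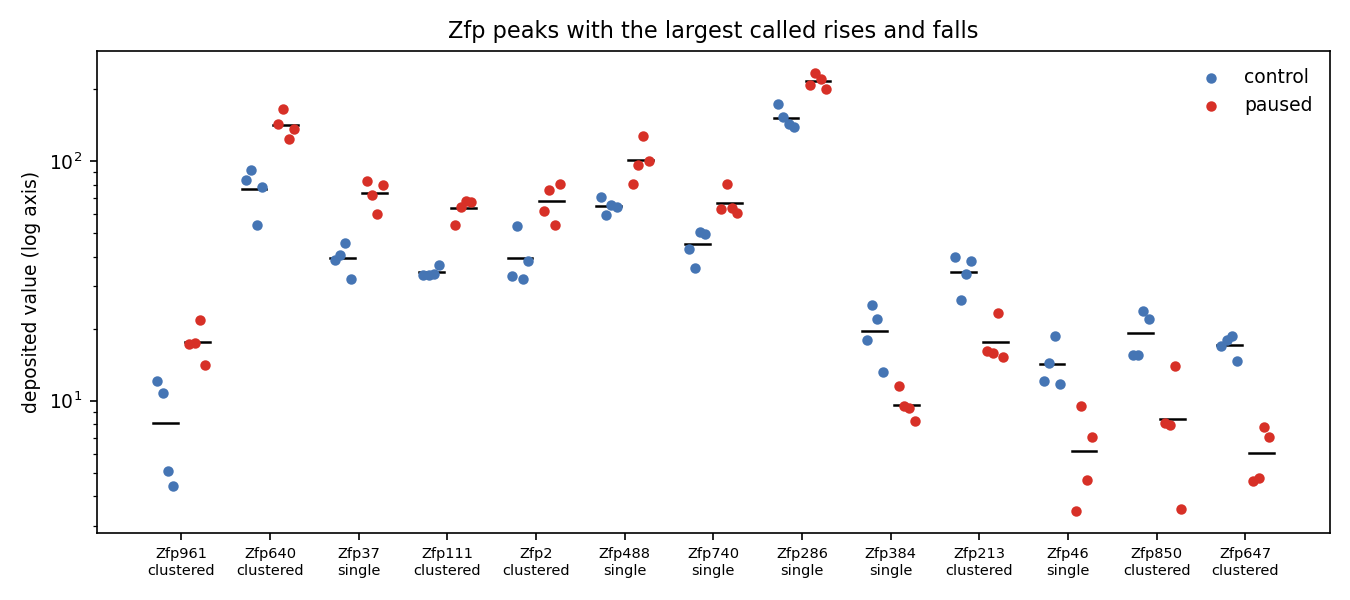
Deposited values on a log axis for the Zfp peaks with the largest called rises and falls whose groups do not overlap, in control (blue) and paused (red) libraries. Points are libraries and bars are group means. The rises of Zfp640, Zfp111, Zfp2 and Zfp37 sit at values of about 32 to 166, whereas Zfp647, Zfp46 and Zfp384 fall at values under 30.

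Among 11 genes listed for their known functions, 2 of 16 tested peaks (12.5%) were higher and 0 lower, a share close to the 11.0% of all peaks. Zfp568 encodes the KRAB protein that represses a placental promoter of Igf2. Its peak (chromosome 7, 29983534 to 29983734) went from 182, 199, 220 and 204 to 265, 229, 323 and 261 without overlap, a change of 0.41 (SE 0.11, adjusted p = 0.0131). That call was lost without paused 3 (adjusted p = 0.0651) and under 3 other settings. The promoter peak of Zfp36 (chromosome 7, 28379327 to 28379527) went from 235, 266, 266 and 272 to 328, 327, 323 and 319, a change of 0.32 (SE 0.10, adjusted p = 0.0317). This call was lost under 9 settings, among them TMM (adjusted p = 0.148 with edgeR) and leaving out control 1 (adjusted p = 0.104), control 3, paused 1, paused 2 or paused 4.

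Zfp809, whose protein binds the primer binding site of murine leukaemia viruses, had values of 220, 234, 217 and 263 in control and 257, 230, 282 and 271 in paused libraries at its start. The groups overlapped, and the change of 0.16 did not pass (SE 0.11, adjusted p = 0.36). Zfp932, a repressor of endogenous retroviruses, had a change of 0.10 (adjusted p = 0.608). Zfp445, a guardian of imprinted loci, had 0.35 (adjusted p = 0.0847), with groups that did not overlap, at a peak that also lies 113 bp from an end of Zkscan7.

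Changes that did not pass were also measured at Zfp708 (0.45), Zfp521 (0.27), Zfp462 (0.25), Zfp423 (0.19) and Zfp217 (0.04). These are regulators of retroelements, of neural and fat cell fate and of chromatin, and their adjusted p ran from 0.132 at Zfp462 to 0.928 at Zfp217. Zfp143 had no peak within 2 kb of its ends.

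The strongest Zfp peak of all was that of Zfp960, a single gene on chromosome 17. Its values were 529, 625, 709 and 642 in control and 693, 708, 905 and 725 in paused libraries, which overlapped, and the change of 0.27 did not pass (SE 0.10, adjusted p = 0.0633). It passed without control 3 (adjusted p = 0.0473). Zfp654 and Zfp687, next in strength, had changes of 0.15 and 0.07 (adjusted p = 0.354 and 0.691).

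Of the 16 strongest peaks, 1 for each cluster of 5 or more genes with a peak, 3 (18.8%) were called higher, close to the 18.0% of all peaks in the strongest 10%, where 15 of the 16 lie: Zfp719 (0.42, adjusted p = 0.00649), Zfp846 (0.33, adjusted p = 0.0343) and Zfp36. Zfp719 went from 202, 213, 225 and 241 to 296, 276, 285 and 322, without overlap; its call was lost under DESeq2 and the loess correction. Zfp846 lost its call under 10 settings, among them each left-out library except control 3 and paused 1. Zfp180 (0.24), Zfp810 (0.24), Zfp446 (0.23) and Zfp869 (0.29) did not pass, with adjusted p of 0.0949 to 0.134, and Zfp869 passed without control 3 (adjusted p = 0.0228).

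Motif content was set beside the change for the 201 Zfp peaks whose centre lay within 250 bp of a listed start. Of these, 46 were higher (22.9%, against 11.0% of all peaks and 18.0% of the strongest 10%) and 0 lower, and 40 of the 46 belonged to clustered genes (40 of 129 peaks, against 6 of 72 for single genes). Peaks with CCGGAAG in the promoter window were higher in 14 of 44 cases (31.8%) with a median change of 0.29, and those without it in 32 of 157 cases (20.4%) with a median of 0.21. The NRF1 motif went with a like share, 6 of 19 (31.6%), but a lower median, 0.19 against 0.23 without it. The peaks with CCGGAAG were also stronger than those without it, with a median of the mean value of 249.6 against 213. For the NRF1 motif these medians were 210 with it and 220 without it. The part of strength in the CCGGAAG difference was not tested. With CCAAT, 28 of 109 were higher, and without it 18 of 92. With GGGCGG, 16 of 89 were higher, and without it 30 of 112. With ATGGCG, 7 of 38 were higher (18.4%, median 0.26), and without it 39 of 163 (23.9%, median 0.22). With TATAAA, 2 of 10 were higher, and without it 44 of 191. TGACGTCA had 0 of 8 higher, against 46 of 193 without it, and the CGCG motif 0 of 1, against 46 of 200.

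Zfp genes without any peak near their ends numbered 43, of which 25 were clustered. On chromosome 4 the cluster from Zfp980 to Zfp993 (145670697 to 146991471) held 6 Zfp genes and 0 peaks of any kind over 1321 kb. Its neighbour from Zfp991 to Zfp933 (147124882 to 147849126) held 9 genes, of which only Zfp933 had a peak, and 2 peaks in all. That is 0.276 peaks per 100 kb, against 5.23 per 100 kb over the chromosomes. Zfp933 had values of 80.9, 88.4, 79.6 and 83.8 in control and 88.8, 96.2, 77.6 and 79.7 in paused libraries, with a change of 0.04.

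Many of the genes without a peak had promoters that resembled that of another Zfp gene. Of the 37 such genes with a listed promoter, 15 (40.5%) had a window at least 80% identical to that of another Zfp gene, compared with 13 of the 261 genes with a peak (4.98%). On chromosome 2, Zfp966 and Zfp967 had identical windows, and neither had a peak. Both count as single genes here, with starts 590 kb apart, and so does their near copy Zfp970. The sequences below show how close such copies are: Zfp966 at chr2:175931101-175931350 on the minus strand and Zfp970 at chr2:177464492-177464741 on the plus strand, each the 250 bases before the start, with capitals in Zfp970 for bases not matched to Zfp966 in the alignment. The 300-base windows of this pair were 96.0% identical. Whether reads that fit several places were kept is not given in the sources used here, and the part of such reads in the absence of peaks was not tested.
Zfp966: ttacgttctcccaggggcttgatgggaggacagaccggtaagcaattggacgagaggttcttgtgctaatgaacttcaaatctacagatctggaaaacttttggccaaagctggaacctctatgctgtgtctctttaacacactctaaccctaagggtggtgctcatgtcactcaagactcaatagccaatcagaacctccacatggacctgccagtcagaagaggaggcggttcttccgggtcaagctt
Zfp970: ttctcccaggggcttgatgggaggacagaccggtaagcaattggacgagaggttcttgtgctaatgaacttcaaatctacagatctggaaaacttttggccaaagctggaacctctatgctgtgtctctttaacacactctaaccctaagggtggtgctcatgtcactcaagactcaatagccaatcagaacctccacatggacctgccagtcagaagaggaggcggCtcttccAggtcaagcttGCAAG

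Genes that KRAB zinc finger proteins work with were measured by the same test. All 27 genes of a list of co-repressors and partners had gene-end peaks, 48 in all, of which 8 were higher and 0 lower (16.7%, against 11.0% of all peaks and 9.69% of other gene-end peaks), with a median change of 0.22. The list includes Zfp42 and Zfp57, zinc finger genes themselves, which gave 3 of the 8, and without them 5 of 43 peaks (11.6%) were higher, about the share of all peaks. Setdb1, the histone H3 lysine 9 methyltransferase, had both of its peaks called. The stronger, at its promoter, went from 68.8, 59.7, 64.3 and 52.9 to 98.1, 71.0, 76.0 and 91.4, a change of 0.44 (SE 0.15, adjusted p = 0.0432), and the other changed by 0.60 (adjusted p = 0.0213).

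Trim28, the co-repressor itself, had values of 273, 351, 295 and 329 in control and 315, 336, 382 and 377 in paused libraries, which overlapped, with a change of 0.18 (SE 0.11, adjusted p = 0.274). Atrx, a chromatin remodeller on chromosome X, had 0.17 (adjusted p = 0.362). The other called peaks were those of Cbx5 (0.38), a heterochromatin protein, Uhrf1 (0.34), which guides maintenance DNA methylation, Resf1 (0.97), a SETDB1 partner, Zfp57 (0.41), the KRAB protein of imprinted regions, and Zfp42 (0.40 and 0.52), the pluripotency marker Rex1; they are named because they were called. Other peaks of these genes did not pass: 0.37 and 0.08 at Cbx5, -0.44 at Uhrf1, 0.33 at Zfp57 and 0.36 at Zfp42. The called Resf1 peak lies 1415 bp from a gene end. The Resf1 peaks at 36 and 1316 bp did not pass, with changes of 0.22 and 0.0006. Only the called Resf1 peak kept its call after the loess correction. The list had 5 higher peaks without control 1 and 4 without paused 4.

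Other families of zinc finger genes were measured with the same test. A peak near both a family gene and a Zfp gene counts in both sets, as the Zfp445 peak near Zkscan7 does. Zbtb genes had 9 higher and 1 lower of 62 tested peaks (14.5% higher, median change 0.19), a share near the 15.2% of Zfp gene ends. Zkscan genes had 2 of 17 higher (11.8%, median 0.24), Zscan genes 2 of 22 (9.09%, 0.18), Klf genes 3 of 29 (10.3%, 0.15), Sp genes 0 of 15 (0.14) and Egr genes 0 of 3 (0.13). All 6 medians lay above the 0.10 of all peaks, whereas against the 0.15 of other gene-end peaks those of Sp and Egr lay lower and that of Klf was about equal.

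The 2 kb limit fell among peaks of similar strength on both sides. The 31 members at 1808 to 1973 bp had a median of the mean value of 35.4, and the 26 peaks at 2003 to 2200 bp had 32.8. Both were near the 34.4 of all tested peaks and below the 138 of tested Zfp peaks. Strong peaks also lay on both sides, with values up to 522 inside and 464 outside. The 17 members left out of the test for low values (mean of 2.68 to 9.67) comprised 15 of clustered genes and 2 of single genes. A non-Zfp gene also ended within 2 kb of 54 members, and 14 members lay near 2 or more Zfp genes.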

How the data were processed

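ATAC-seq signal was analysed in 8 libraries, 4 control and 4 paused, grouped by their titles. The submitters' processing notes name FastQC, Trim Galore, Bowtie2 2.4.1, MACS3 3.0.3, DiffBind 3.16.0 and mm10; the order, settings, Tn5 shift and treatment of reads with several matches are not given in the sources used here. The table holds 1 peak set of 201 bp peaks shared by all libraries. The signal deposited by the authors is reads per peak divided by 1 factor per library: at least 99.99% of the values of each library were whole multiples of 1 step (tolerance 0.0055 in value), which returned the reads. The log2 values (group concentrations and a fold) and the p-values with FDR deposited by the authors enter the text in 1 sentence, which names the authors' deposited table. Columns of per-sample values left unused numbered 0.

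The main test was limma-trend (limma 3.58.1, R 4.3.3) on log2(value + 1) on the 127402 peaks whose mean value reached 10, and p was adjusted by Benjamini-Hochberg over all of them. Changes on this scale are understated for weak peaks. Alternatives were edgeR 4.0.16 (TMM or deposited factors) and DESeq2 1.42.0 on the recovered reads, TMM or loess (span 0.3) rescaling, a pseudocount of 0.1, no filter, 1 kb to a gene end, cluster windows of 250 and 1000 kb, a replicate block and each library left out. The fits were tested on simulated data.

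Gene spans, names, strands and promoters came from RefSeq tables of GRCm38.p6; exons, introns and protein sequences were not analysed here. The depth ran from 4434037 to 21161767 reads in peaks, and 3 reads are worth a value of 1.04 in control 1 and 5.08 in control 3; such limits cover counting error only. Named peaks were the 4 largest called rises and falls without overlap in each class, the strongest peak of each cluster with 5 or more genes, the 3 strongest peaks, and the strongest peak of listed genes; peaks named to complete a count, such as Zfp219, were chosen after their values were seen. The members, lists and rules were chosen with earlier results of these data known. The labels do not say that replicate numbers pair the libraries, so the main test used no pairing. Correlations of same-numbered deviations were 0.0790, 0.0358, 0.133 and 0.0395. Those of differently numbered libraries ran from -0.105 to 0.0703, so weak pairing was not excluded.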

Additional observations from a re-analysis of the deposited data

Results flagged for a closer look

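In 94 groups of 4 libraries (41 named peaks, 5 library means and the share of reads, each in control and paused cells), 6 had 1 library far from the other three, where chance alone gives about 1 in 20. Control 4 stood apart at the far-end peak of Zfp111, with 36.7 against 33.4 to 33.9 in the other controls. Control 1, the deepest library, was low at the Zfp36 promoter, with 235 against 266 to 272. Paused 2 was high at Zfp740, with 80.4 against 60.9 to 63.6.

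Paused 3 was high at 3 peaks: 23.3 against 15.2 to 16.2 at Zfp213, 905 against 693 to 725 at Zfp960, and 113 against 96.9 to 99.6 at Zfp445. At Zfp213, which fell, paused 3 is thus the paused library nearest to the controls, and at Zfp960 and Zfp445 it is the farthest from them.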

How the results depend on the processing

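The medians of all Zfp gene-end peaks, of clustered genes, of gene starts and of the co-repressor list stayed positive under every setting run; those of single genes and of far ends did not. Counts depended on scaling and on the libraries used, and the cause was not tested. The share of Zfp peaks called higher fell below that of all peaks under both TMM settings, DESeq2 and loess, and without control 1 or paused 3.

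With edgeR and TMM, Zfp peaks had 33 higher and 13 lower calls and a median of 0.094 (clustered 25, 7 and 0.12; single 8, 6 and 0.063; starts 22, 5 and 0.12; far ends 8, 7 and -0.019; co-repressor list 4 higher and 0.10). With DESeq2 these were 10, 3 and 0.094 (clustered 8 higher and 0.12; single 2, 1 and 0.066; starts 7, 0 and 0.12; far ends 3 higher and -0.015; list 1 and 0.10). After the loess correction there were 11 higher calls and a median of 0.0097 (clustered 9 and 0.031; single 2 and -0.019; starts 6 and 0.021; far ends 5 and -0.0057; list 1 and 0.030). After TMM rescaling with limma-trend there were 24 and 0.094 (clustered 19, 5 lower and 0.11; single 5 and 0.064; starts 16 and 0.11; far ends 6 and 0.0043; list 2 and 0.12). edgeR with the deposited factors called 93 Zfp peaks higher and 27 of single genes. The difference of the library means was 0.081 for clustered and 0.022 for single genes under TMM, and 0.034 and -0.016 under loess. Within 1 kb, 61 peaks were higher and 2 lower (1 clustered, 1 single). With cluster windows of 250 and 1000 kb, clustered peaks had 48 and 58 higher calls and single peaks 24 and 14.

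Whether the replicate numbers pair the libraries is not given in the labels. With the replicate block, 111 Zfp peaks were higher and 7 lower (single 36 and starts 80 higher).

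Leaving out each library gave 34 to 74 higher and 2 to 6 lower Zfp peaks and medians of 0.16 to 0.22. The ranges were 27 to 58 and 2 to 4 for clustered genes (median 0.18 to 0.24), 6 to 21 and 0 to 2 for single genes (0.13 to 0.20), 23 to 54 and 0 to 2 for starts (0.18 to 0.25), 9 to 13 and 1 to 4 for far ends (0.080 to 0.16), and 4 to 8 higher for the list (0.20 to 0.25).

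Among named peaks, sign changes occurred only at peaks that had not passed the test. Under loess they were Zfp51 (-0.11), Zfp771 (-0.096), Zfp865 (-0.010), Zfp87 (-0.056), Zfp398 (-0.10), Zfp566 (-0.016), Zfp81 (-0.030), Zfp933 (-0.15), Zfp654 (-0.063), Zfp687 (-0.14), Zfp217 (-0.059), Zfp423 (-0.017), Zfp809 (-0.052) and Zfp932 (-0.10). Under TMM rescaling, edgeR with TMM and DESeq2, values were -0.064, -0.061 and -0.064 at Zfp933, -0.028, -0.024 and -0.028 at Zfp687, and -0.062, -0.098 and -0.083 at Zfp217. Zfp51 was at -0.0058 under TMM rescaling, and Zfp771 at -0.0023 with edgeR and -0.014 with DESeq2. With 1 library left out, Zfp771 ranged from -0.013 (control 1) to 0.26, Zfp933 from -0.021 (paused 2) to 0.082, Zfp687 from -0.0051 (paused 3) to 0.16, and Zfp217 from -0.075 (paused 3) to 0.11, being at -0.036 without control 2. Of the 17 named peaks that were called, 10 lost the call under loess, 11 with DESeq2 and 3 with edgeR and TMM.

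Depth limits the weak peaks most: at a value near 10, control 3 holds about 6 reads.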
